A study of Homo sapiens with 6 samples.

Results

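The genes described here are 10 human genes whose RNA is well known to give rise to circular RNAs: ASXL1, SMARCA5, ZNF609, ZKSCAN1, HIPK3, FBXW7, CAMSAP1, CORO1C, EIF3J and PAIP2. They were taken by name, and a peak was counted as a member when it overlapped the gene's span in the assembly hg19 on the gene's strand. By this rule 81 of the 21618 peaks of one DHX9 antibody, DHX9-Rb, and 26 of the 6831 peaks of the other, DHX9-mAb, belonged to the genes. The study crosslinked proteins to RNA by ultraviolet light in HEK293 cells, an established human line of embryonic kidney origin, and sequenced the RNA fragments that came down with DHX9, a method named FLASH. Each DHX9 antibody and a control immunoglobulin, IgG-Rb, had 2 biological replicates, and no cells were treated or genetically changed according to the labels. The values used here are 1 list of peak regions for each DHX9 antibody, in which both replicates are combined. A peak has a start, an end and a strand, and no height, fold or p-value. Read depth is therefore unknown, no replicate error can be given, and no IgG-Rb value stands beside a peak.

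DHX9 is a helicase of the nucleus that unwinds double-stranded RNA. A circular RNA forms when the end of an exon is spliced back to the start of the same exon or of one upstream, and inverted repeats in the introns on both sides, often Alu elements, can pair and bring these ends together. DHX9 can open such paired repeats, so the introns of circular RNA hosts are places where its contacts are of interest. The join of a ring is a sequence that the linear messenger RNA does not hold. It is shown for HIPK3 (exon 2) and SMARCA5 (exons 15 to 16), whose circularised exons were set beforehand from general knowledge. The exon sequences are those of GENCODE 29 transcripts. Lower case marks the last bases of the ring's final exon and capitals the first bases of its first exon (5′ to 3′):
HIPK3: atctcggtactacagGTATGGCCTCACAAG
SMARCA5: agagaaaaacaaaagGGAGGCTTGTGGATC

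The HIPK3 ring is 1099 nt long, and the introns before and after it are 28.5 and 41 kb in that annotation. The SMARCA5 ring is 269 nt long after splicing, between introns of 3.01 and 0.764 kb. Neither gene had a peak with either antibody. These lengths come from an annotation of GRCh38, whose positions were not set against the hg19 peaks, so peaks are placed below by their distance from the gene's 5′ end and not by exon or intron.

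Peaks were very unevenly spread over the 10 genes. ZNF609, ASXL1 and PAIP2 accounted for 75 of the 81 DHX9-Rb peaks (92.6%) and for 25 of 26 with DHX9-mAb. EIF3J, CORO1C, CAMSAP1 and FBXW7 held 1 or 2 DHX9-Rb peaks each, and HIPK3, ZKSCAN1 and SMARCA5 held none. DHX9-mAb peaks lay in 4 of the 7 genes with a DHX9-Rb peak, and no gene had DHX9-mAb peaks alone. Among 100 kb windows of a single strand outside these genes, 51.6% of those with a DHX9-Rb peak also held a DHX9-mAb peak. These windows held a median of 2 DHX9-Rb peaks and differ from the genes in length and peak number. The share is thus only a rough background for 4 of 7. No peak of either list lay on the opposite strand of any of the 10 genes. An empty list entry means that no region passed the authors' caller, and how many reads fell there is not known.

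**Figure D1:**
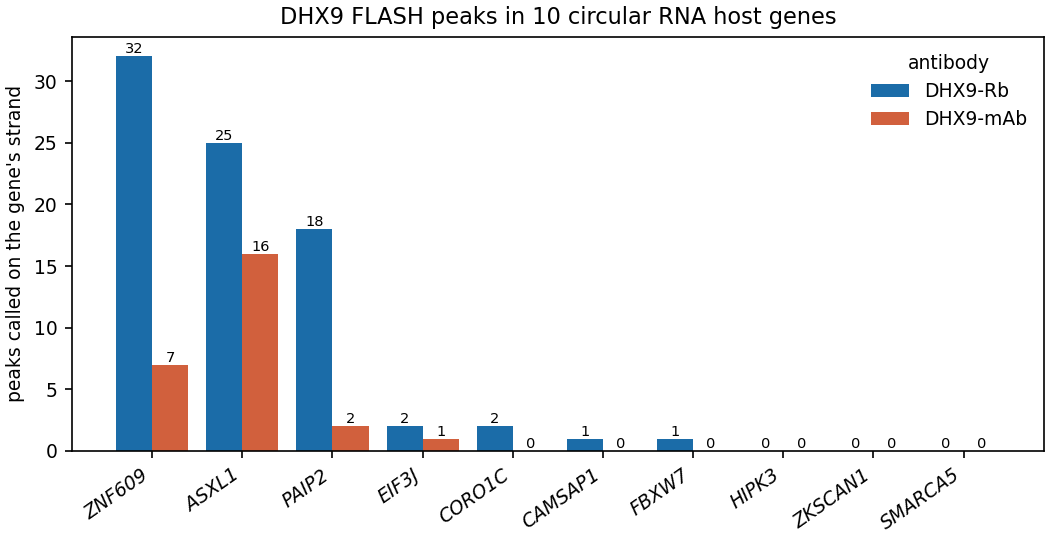
Number of peaks on the gene's strand (vertical axis) in each of the 10 genes (horizontal axis), for DHX9-Rb (blue) and DHX9-mAb (orange), each bar being 1 list that combines both replicates. ZNF609, ASXL1 and PAIP2 carry 32, 25 and 18 DHX9-Rb peaks, and the other 7 genes carry 6 together.

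Taken over all 10 genes, the antibodies related to each other much as they did in the whole lists. There were 3.12 DHX9-Rb peaks for each DHX9-mAb peak, against 3.16 in the whole lists. A peak was taken to have a partner when it shared 1 nt or more with a same-strand region of the other list. With DHX9-mAb 23 of 26 had one, or 88.5% (95% Wilson interval 71.0 to 96.0), and over the whole list the share was 88.0%. With DHX9-Rb 25 of 81 had one, or 30.9% (21.9 to 41.6), and over the whole list 28.6%. Both shares, taken over all 10 genes, were therefore near the background. By gene the DHX9-Rb share was 64% in ASXL1, 21.9% in ZNF609 and 11.1% in PAIP2, and whether these differ was not tested. In the genes with 1 or 2 DHX9-Rb peaks, none had a partner. Where peaks overlapped, their midpoints lay a median of 38 nt apart in these genes and 35.5 nt apart over all overlapping DHX9-mAb peaks. Peaks of a transcript are not independent, so the intervals cover counting error only. The median DHX9-Rb peak in the genes was 199 nt wide (range 75 to 585), against 201 nt in the whole list, and the median DHX9-mAb peak 202 nt (127 to 492), against 191 nt.

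Of the genes that act on chromatin and transcription, ASXL1 and ZNF609 were rich in peaks and SMARCA5 and ZKSCAN1 had none. ASXL1 encodes a partner of the BAP1 deubiquitinase that acts on histone H2A. Its gene (chr20:30946147-31027122, plus strand, 81.0 kb) held 25 DHX9-Rb and 16 DHX9-mAb peaks, which covered 7.74% and 4.68% of its length. It was the gene with the highest share of partnered DHX9-Rb peaks, 16 of 25 (64.0%, 95% Wilson interval 44.5 to 79.8). Over the whole list the share was 28.6%. With DHX9-mAb, 15 of 16 had a partner (93.8%, 71.7 to 98.9).

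Most ASXL1 peaks lay in a single dense stretch. Between 14.0 and 24.5 kb from the 5′ end, 22 DHX9-Rb peaks followed each other with gaps under 1 kb (chr20:30960115-30970693), and they covered 52.2% of this stretch. The stretch makes up 13.1% of the gene and held 88% of its DHX9-Rb peaks. Of all 8373 DHX9-Rb runs in the genome built by the same gap, counting single peaks as runs of 1, 63 (0.752%) held as many peaks or more. The same stretch held 14 DHX9-mAb peaks, of which 12 formed a run of their own (chr20:30960220-30966532), and 37 of 3630 DHX9-mAb runs (1.02%) were as large or larger. Within it 15 of the 22 DHX9-Rb peaks had a partner. Downstream of the 20.4 kb mark where the run of 12 ended, the stretch held 2 DHX9-mAb peaks, at 21.5 and 23.8 kb. From 21.0 kb on it held 7 DHX9-Rb peaks. That mark was set by the DHX9-mAb peaks themselves, so few of them beyond it is partly given.

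Overlapping ASXL1 peaks seldom shared their edges. Their midpoints lay a median of 64 nt apart and at most 236 nt, and the overlap ranged from 46 to 300 nt. The first DHX9-Rb peak of the gene (chr20:30960115-30960265, 151 nt) shared 46 nt with a DHX9-mAb peak that began further downstream. The widest DHX9-Rb peak with a partner was chr20:30966382-30966792, 411 nt wide, which shared 151 nt. A DHX9-Rb peak of 103 nt (chr20:30965994-30966096) lay wholly inside a DHX9-mAb peak of 151 nt with the same midpoint. Outside the run there were 3 DHX9-Rb peaks, at 49.1, 53.3 and 65.4 kb, the last at chr20:31011504-31011706. Only the one at 53.3 kb had a DHX9-mAb partner. The 1 DHX9-mAb peak without a partner lay beside it (chr20:30999186-30999335), 116 nt from the nearest DHX9-Rb peak. The flank upstream of the gene, as long as the gene itself, held 2 DHX9-Rb peaks on the same strand and no DHX9-mAb peak, and the downstream flank held none of either.

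ZNF609 encodes a zinc finger protein that acts in transcription, and the ring from its second exon is among the best known circular RNAs. The gene is the longest of the 10 (chr15:64752941-64978264, plus strand, 225 kb). It held the most DHX9-Rb peaks, 32, but only 7 DHX9-mAb peaks. They covered 2.97% and 0.857% of the gene. A partner was found for 7 DHX9-Rb peaks (21.9%, 11.0 to 38.8) and for 6 of the 7 from DHX9-mAb. The whole-list DHX9-Rb share, 28.6%, lies inside that interval, and with DHX9-mAb the whole-list share was 88.0%. In the 5′ part of the gene lay 29 of the 32 DHX9-Rb peaks and all 7 DHX9-mAb peaks, when the gene is divided at its midpoint.

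The peaks of ZNF609 fell into groups with long empty stretches between them. The first DHX9-Rb peak was at 4.95 kb (chr15:64757891-64757990, 100 nt), and 7 more followed up to 24.4 kb, among them the widest DHX9-Rb peak of all 10 genes (chr15:64771871-64772455, 585 nt). None of these 8 had a DHX9-mAb partner, as was so for 15443 of the 21618 peaks of the whole DHX9-Rb list. The only DHX9-mAb peak of that region, chr15:64775599-64776085, was 487 nt wide and lay 1046 nt from the nearest DHX9-Rb peak. Another 4 DHX9-Rb peaks lay between 44.7 and 56.9 kb, again without DHX9-mAb peaks. The densest group, between 75.3 and 83.9 kb (chr15:64828195-64836874), was a run of 16 DHX9-Rb peaks, which 124 of all DHX9-Rb runs (1.48%) equalled or exceeded. It took up 3.85% of the gene and held 50% of its DHX9-Rb peaks and 6 of its 7 DHX9-mAb peaks. Beyond it the last 4 DHX9-Rb peaks stood alone, at 107, 124, 168 and 194 kb, with an empty stretch of up to 43.1 kb between neighbours, and the last was chr15:64946660-64946797.

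In that run the antibodies met over its middle. The DHX9-mAb peaks were chr15:64830399-64830552, chr15:64830943-64831203, chr15:64831933-64832424, chr15:64832781-64832938, chr15:64833136-64833329 and chr15:64836080-64836265. The first 5 of these, in 2.93 kb, each had a DHX9-Rb partner whose midpoint was 49.0 nt away or less. The third was the widest DHX9-mAb peak of the 10 genes, 492 nt, and overlapped a pair of DHX9-Rb peaks, of which chr15:64832012-64832379 (368 nt, the widest partnered DHX9-Rb peak of the gene) lay wholly inside it. The last DHX9-mAb peak touched its partner by 13 nt, with midpoints 169 nt apart. DHX9-Rb peaks at the run's upstream end, 4 in number, and 5 others downstream had no partner.

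**Figure D2:**
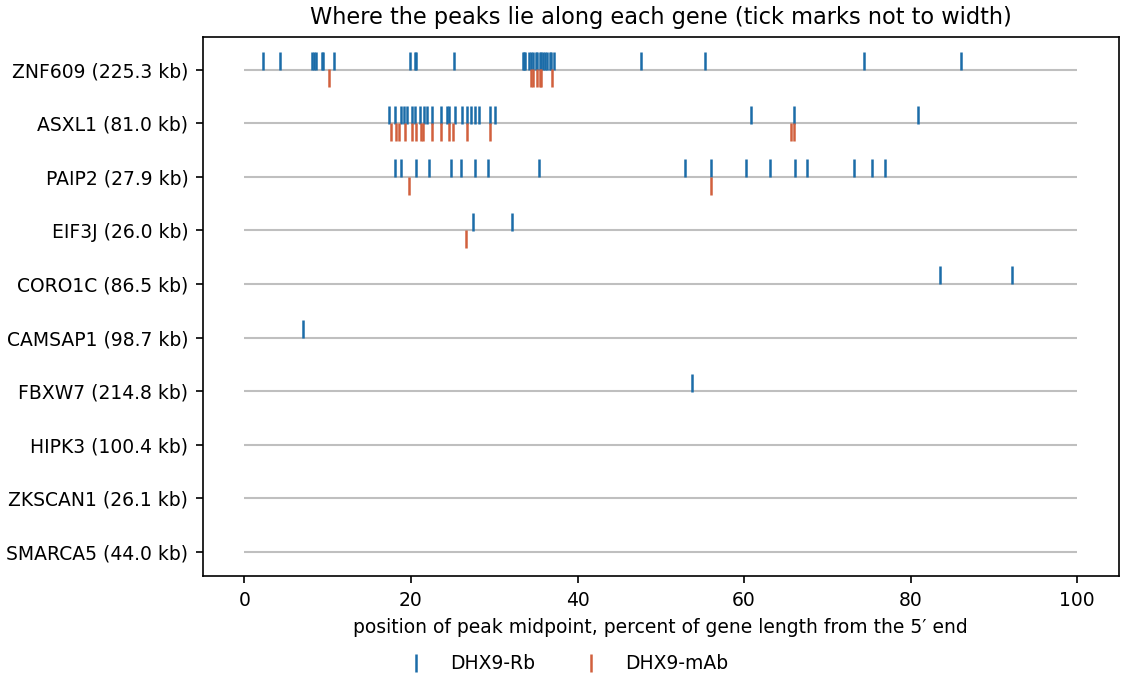
Position of each peak's midpoint along the gene, as percent of gene length from the 5′ end (horizontal axis), for the 10 genes (rows, with their length), DHX9-Rb above and DHX9-mAb below each line. A dense run holds 22 of the 25 DHX9-Rb peaks of ASXL1 and another holds 16 of the 32 of ZNF609, those of PAIP2 lie in several groups from 17.9% to 77.4%, and 3 genes are empty.

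SMARCA5, an ATPase of the ISWI chromatin remodelling complexes (chr4:144434616-144478640, plus strand, 44.0 kb), and ZKSCAN1, a zinc finger protein with KRAB and SCAN domains (chr7:99613204-99639312, plus strand, 26.1 kb), had no peak in either list. SMARCA5 also stood far from any other peak of its strand, with the nearest DHX9-Rb peak 4.15 Mb away and the nearest DHX9-mAb peak 4.19 Mb away. For ZKSCAN1 these distances were 79.8 and 110 kb. Windows without peaks are the common case. Of the 57878 windows of 100 kb on either strand between the first and last peak of chromosomes 1 to 22 and X, 6.56% held a DHX9-Rb peak outside the 10 genes. Most such windows need not hold a transcribed gene, so this share is not a background for genes.

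The translation genes PAIP2 and EIF3J both had peaks of both antibodies. Their rings are known as exon-intron circular RNAs, which keep an intron between their exons and stay in the nucleus. PAIP2 encodes a protein that binds the poly(A)-binding protein and represses translation. With 18 DHX9-Rb peaks in 27.9 kb (chr5:138677515-138705403, plus strand), it was the most densely marked of the 10 genes, with 6.45 peaks per 10 kb and 15.5% of its length covered, against 3.09 per 10 kb in ASXL1 and 1.42 in ZNF609. Of the 100 kb strand windows with a DHX9-Rb peak, 7.14% held 18 or more, and the median held 2. Such windows are longer than the gene, so this share does not rank its density. Only 2 DHX9-mAb peaks lay in the gene, 0.717 per 10 kb.

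The PAIP2 peaks of DHX9-Rb spread over the gene from 4.99 to 21.6 kb in several groups. A run of 8 lay at 4.99 to 8.33 kb (chr5:138682509-138685845), a single peak at 9.76 kb, a run of 6 at 14.7 to 19.1 kb (chr5:138692216-138696587) and a run of 3 at 20.3 to 21.6 kb. Runs of 8 or more made up 6.32% of all DHX9-Rb runs. The first peak was chr5:138682509-138682630 and the last chr5:138698820-138699103, and the widest measured 493 nt (chr5:138698276-138698768). Of the 18, 2 (11.1%, 95% Wilson interval 3.1 to 32.8) had a DHX9-mAb partner. The whole-list share of 28.6% lies inside this interval. One, chr5:138683077-138683426, 350 nt wide, was only touched, sharing 24 nt with chr5:138682974-138683100. The other contained chr5:138693056-138693215 whole, and their midpoints lay 4.5 nt apart. The run at 20.3 to 21.6 kb, the densest in covered sequence of the 3 (77.9%), had no DHX9-mAb peak.

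EIF3J encodes a subunit of the translation initiation factor eIF3. Its gene (chr15:44829266-44855227, plus strand, 26.0 kb) held 2 DHX9-Rb peaks, chr15:44836305-44836483 and chr15:44837480-44837704, 7.04 and 8.21 kb from the 5′ end. Its 1 DHX9-mAb peak, chr15:44836108-44836260, overlapped neither, but ended 44 nt before the first of them. All 3 lay within 26.4% to 32.5% of the gene's length. The antibodies thus marked the same stretch of EIF3J without sharing a base.

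**Figure D3:**
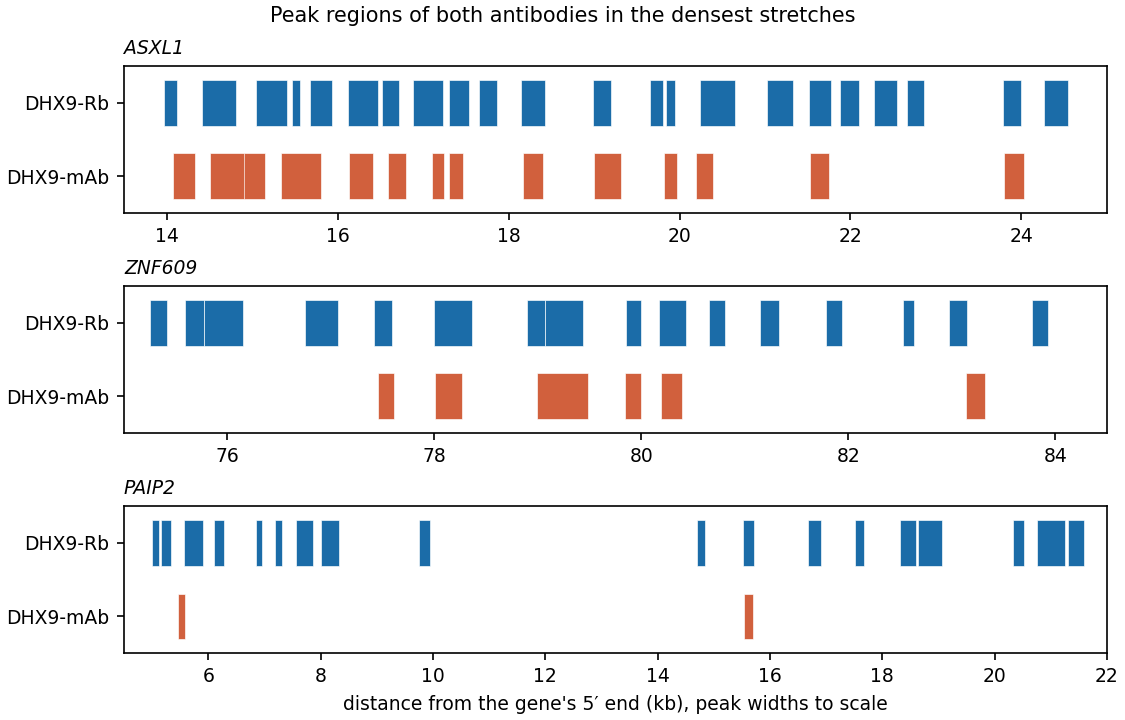
Peak regions drawn to scale along the distance from the gene's 5′ end in kb (horizontal axis) in ASXL1, ZNF609 and PAIP2, DHX9-Rb above and DHX9-mAb below. In ASXL1 15 of the 22 DHX9-Rb peaks shown have a DHX9-mAb peak beneath them, in ZNF609 7 of 16 and in PAIP2 2 of 18. Over the whole DHX9-Rb list 28.6% of peaks have one.

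Of the cytoskeletal genes, CORO1C, which encodes the actin-binding protein coronin 1C, held 2 narrow DHX9-Rb peaks. They lay late in the gene (chr12:109038885-109125372, minus strand, 86.5 kb), at 72.2 kb (chr12:109053053-109053127, 75 nt) and at 79.7 kb (chr12:109045525-109045684, 160 nt). CAMSAP1, which encodes a protein that binds the minus ends of microtubules, held 1 DHX9-Rb peak early in the gene (chr9:138700333-138799060, minus strand, 98.7 kb), at 6.81 kb, chr9:138792012-138792250, 239 nt wide. Neither gene had a DHX9-mAb peak, and the nearest DHX9-mAb peak of the same strand lay 1.29 Mb from CORO1C and 485 kb from CAMSAP1.

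The signalling and protein turnover genes were almost empty. FBXW7 encodes the F-box protein that selects substrates for a ubiquitin ligase, and it is the second longest gene here (chr4:153242410-153457253, minus strand, 215 kb). It had 1 DHX9-Rb peak, chr4:153341597-153341746, 150 nt wide and near the middle of the gene at 53.8% of its length. HIPK3, a protein kinase (chr11:33278218-33378569, plus strand, 100 kb), had none, although its circular RNA is among the best studied. The nearest DHX9-Rb peak on its strand lay 30.4 kb downstream of it, and the nearest DHX9-mAb peak 704 kb away. Long genes thus held both many and few DHX9-Rb peaks, with 32 in ZNF609, 1 in FBXW7 and none in HIPK3.

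The largest DHX9-Rb runs of ASXL1, ZNF609 and PAIP2 held 22, 16 and 8 peaks, and these genes are also the ones with the most peaks. Each was the largest of several runs in its gene, yet was set against all runs. The percentages given for them are therefore not a background for whole genes. In the whole DHX9-Rb list 57.6% of runs were single peaks. The peaks of CORO1C, CAMSAP1 and FBXW7 all stood alone in this sense, and those of EIF3J formed a run of 2, a size that 42.4% of runs reached. With DHX9-mAb, 68.5% of runs were single peaks, and so were both PAIP2 peaks and the EIF3J peak. The largest DHX9-mAb run of ZNF609 held 5 peaks, as 7.33% of DHX9-mAb runs did or exceeded.

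**Figure D4:**
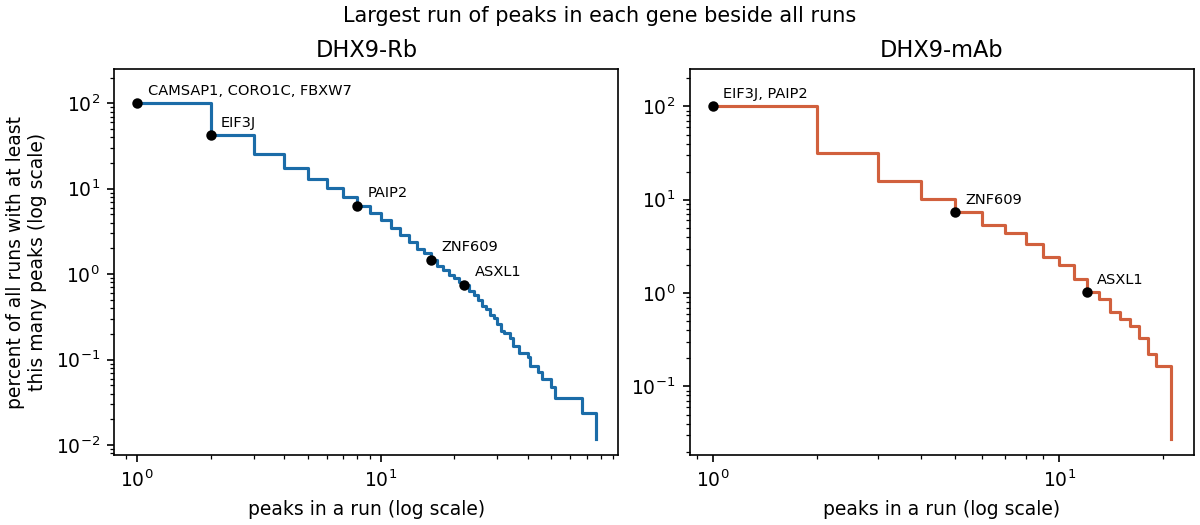
Percent of all runs (vertical axis, log scale) with at least the given number of peaks (horizontal axis, log scale) for DHX9-Rb (left) and DHX9-mAb (right), where a run is a chain of same-strand peaks less than 1 kb apart. Points mark the largest run of each gene with a peak, and ASXL1 lies farthest out in both lists, at 0.752% and 1.02%. A gene's largest run is set here against all runs, most of them single peaks. The percentages are therefore not a background for whole genes.

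The genes were then compared for their balance between the antibodies. Two-sided Fisher's exact tests set the gene's peak numbers against the rest of both lists, with Benjamini-Hochberg adjustment over 815 features, which were the 3 genes and all 100 kb strand windows with at least 10 peaks. At an adjusted p under 0.05, 6 features (0.736%) passed, all windows, and 0 of the 3 genes did. All 6 took a larger part of the DHX9-mAb list. PAIP2, with 20 peaks of both lists, has too few to pass toward DHX9-Rb after this adjustment. Its result therefore does not show an even balance. DHX9-mAb made up 39.0% of the peaks of ASXL1, 17.9% in ZNF609 and 10% in PAIP2, and 24.0% over both whole lists. The odds ratio, above 1 where the gene takes a larger part of the DHX9-mAb list, was 2.03 for ASXL1 (exact test, unadjusted p = 0.0417, adjusted p = 0.630). It was 0.692 for ZNF609 (exact test, unadjusted p = 0.456, adjusted p = 1) and 0.351 for PAIP2 (exact test, unadjusted p = 0.192, adjusted p = 0.907). Without adjustment 1 of the 3 genes and 60 of the 815 features (7.36%) passed 0.05. The gene was ASXL1. By the same exact test its unadjusted p was 0.0574 with peaks within 50 nt merged and 0.0282 with the mitochondrial chromosome left out. Window size and minimum number do not enter a gene's own counts, so under those alternatives its unadjusted p could not change. Peaks in a gene depend on each other, and the p-values speak only of this pair of lists. Whether the 3 genes differ from one another was not tested.

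**Figure D5:**
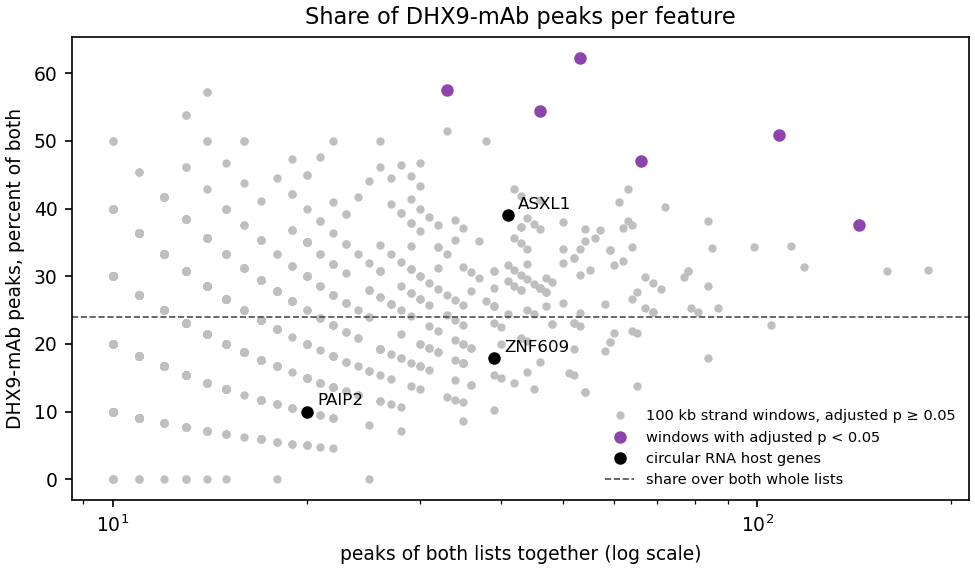
DHX9-mAb peaks as percent of the peaks of both lists (vertical axis) against the number of peaks of both lists (horizontal axis, log scale) for the 815 features tested, with windows that passed in purple and the genes in black. ASXL1 at 39.0% and PAIP2 at 10% lie on either side of the dashed line at 24.0%, among the grey windows that did not pass.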

How the data were processed

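The deposited files hold the first and last base and the strand of each peak. Per the files' source column the authors called peaks with PEAKachu. Bowtie2 2.2.6 and hg19 appear in the submitters' processing notes. The caller's threshold, its use of IgG-Rb and its treatment of reads from repeats (not given in the sources used here) can each change which peaks are listed. The score field was filled in 0 lines. Labels tie each list to both replicates of its antibody.

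The genes, their hg19 spans and the comparisons were chosen with earlier results of these data known. All 10 genes are named. Peaks named by position are the first, last and widest partnered DHX9-Rb peaks and DHX9-mAb peaks without partner, plus all DHX9-mAb peaks of genes with 15 or fewer; others were picked after their values were seen. Runs join same-strand peaks of 1 list less than 1 kb apart. A peak entered a window by its midpoint. The exact test was tried on simulated peak numbers drawn independently, unlike peaks of a gene, so dependence between peaks was not covered. Ring joins were put together from GENCODE 29 exon sequences, with the circularised exons set by hand. A planned list of other host genes needs an hg19 annotation and was not analysed here. Python 3.11.15, NumPy 2.4.6, SciPy 1.17.1, pandas 2.3.3 and matplotlib 3.10.9 were used.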

Additional observations from a re-analysis of the deposited data

How the results depend on the processing

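No alternative changed which genes had peaks of each antibody. The number of DHX9-Rb peaks was 81 with the genes widened by 5 kb or with peaks wholly inside, 74 with peaks within 50 nt merged and 68 without peaks under 150 nt. For DHX9-mAb it was 26, 26, 25 and 23. The overlap shares fell under stricter rules. With overlap of at least 50% of the peak itself, 69.2% of the DHX9-mAb peaks and 21.0% of the DHX9-Rb peaks counted as overlapped, and over the whole lists 78.1% and 21.2%. With 50% of both peaks they were 57.7% and 18.5%, against 62.1% and 19.6%. These rules ask for more shared bases by construction. None of the 3 genes passed the exact test under the 6 alternatives of window size, minimum number, merging and sequences. By the exact test the odds ratio of ASXL1 was between 1.98 and 2.04 (adjusted p 0.332 to 1). That of ZNF609 was between 0.692 and 0.732 and that of PAIP2 between 0.351 and 0.379. Only merging and leaving out the mitochondrial chromosome could move an odds ratio. Window size and minimum number change the adjustment alone. Without peaks under 150 nt, CORO1C kept 1 DHX9-Rb peak and PAIP2 1 DHX9-mAb peak. No paired analysis was possible because each list combines both replicates, and for the same reason no replicate could be left out. A stricter peak threshold could not be tried, since peaks carry no score. Depth is unknown.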

Other observations

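In the annotation of GRCh38 the 3 genes rich in peaks have long introns. The longest intron of the principal transcript was 122.7 kb in ZNF609, 59 kb in ASXL1 (intron 4) and 21.8 kb in PAIP2 (intron 1). Long introns were also annotated in genes with few or no peaks, with 41 kb in HIPK3, 30.1 kb in CORO1C and 23.9 kb in CAMSAP1. In SMARCA5 the longest was 4.33 kb, in ZKSCAN1 7.69 kb, in FBXW7 8.99 kb and in EIF3J 13.4 kb. The FBXW7 transcript, with 11 exons, cannot span the 215 kb used for its peaks, so its longest intron does not stand for that span. Whether the peaks lie in these introns was not tested.

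Peaks of a list that overlap each other were present in the files. In ASXL1, 1 pair of DHX9-mAb peaks, chr20:30960659-30961068 and chr20:30961051-30961293, shared 18 nt. Over the whole lists there were 41 such pairs with DHX9-mAb (0.600% of neighbours) and 194 with DHX9-Rb (0.897%).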
